A study of Homo sapiens with 8 samples.

Results

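The antigen receptor module of T cells was examined in DND41 cells, a human line grown from a T-cell acute lymphoblastic leukemia (T-ALL), as 10 genes chosen by symbol for what their products do. Earlier results of these data were known when the genes were chosen. They are the CD3 chains CD3D, CD3E, CD3G and CD247, the proximal signalling proteins LCK, ZAP70 and LAT, and the pan-T surface proteins CD2, CD5 and CD7. Of these 10 genes 9 had a row among the 18133 rows of the deposited table, and CD5 was not analysed here. All 9 had a mean of at least 10 normalized counts over the libraries, the limit for testing, as did 13885 rows in all.

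The libraries fall into 3 groups of DND41 cells, all of them given doxycycline for 72 h to switch on a short hairpin RNA. The hairpins were sh1 against SIRT1 (3 libraries, A, B and C), sh3 against SIRT1 (3 libraries, A, B and C) and the control hairpin shC (2 libraries, A and C). All groups thus carry an inducible hairpin and saw the drug, all come from a single cell line, and the replicates are separately plated cultures. The labels do not say whether the cells were cloned or infected separately for each. The p-values therefore reflect how far these libraries scatter, and that scatter may be technical. The library sh3 C belongs to the SIRT1 arm by title and genotype but to the control arm by its description. It was kept with sh3, to whose other libraries its lowest Spearman correlation across tested genes was 0.996, while its highest with a control was 0.992. The deposited values summed to between 33087820 and 34072666 normalized counts per library.

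As background, the T cell receptor has no signalling tail of its own and reaches the surface only together with the CD3 chains and CD247 (the zeta chain). Their tails carry tyrosine motifs that the kinase LCK phosphorylates. The kinase ZAP70 docks on the phosphorylated motifs and in turn phosphorylates LAT, a membrane scaffold that gathers the enzymes and adaptors of the downstream branches. CD2 is an adhesion receptor that binds CD58, and CD7 is an immunoglobulin-family surface protein that appears early in the T lineage and is commonly present on T-ALL cells. SIRT1 is a nuclear deacetylase that depends on NAD.

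RefSeq sequence upstream of the start site was matched for 6 of the 9 genes, and it is shown here for 4 of them because they span the responses described below. CD3D and LCK were lower with both SIRT1 hairpins, CD2 had the largest fall, and ZAP70 was not called. The stretch before CD3D also lies in the interval that separates it from its divergent neighbour CD3G. Each sequence covers the 200 bases from 250 to 51 before the RefSeq start, 5′ to 3′ on the strand of the gene, build GRCh38.p14. The positions are chr11:118342756-118342955 on the minus strand for CD3D, chr1:32251015-32251214 on the plus strand for LCK (the upstream of its start sites), chr1:116754180-116754379 on the plus strand for CD2 and chr2:97713326-97713525 on the plus strand for ZAP70. None of the 4 stretches overlaps the gene as annotated in GENCODE 29. Capitals mark matches on either strand to the RUNX motif TGTGGT, the RBPJ motif TGGGAA and the E-box CANNTG, which do not overlap each other in these stretches.
CD3D: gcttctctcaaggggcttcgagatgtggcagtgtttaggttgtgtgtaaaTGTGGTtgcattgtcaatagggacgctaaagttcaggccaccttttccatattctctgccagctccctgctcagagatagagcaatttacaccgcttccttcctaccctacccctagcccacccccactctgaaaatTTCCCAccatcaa
LCK: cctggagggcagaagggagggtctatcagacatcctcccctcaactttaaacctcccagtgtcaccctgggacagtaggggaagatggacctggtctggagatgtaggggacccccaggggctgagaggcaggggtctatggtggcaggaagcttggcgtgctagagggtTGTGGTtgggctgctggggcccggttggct
CD2: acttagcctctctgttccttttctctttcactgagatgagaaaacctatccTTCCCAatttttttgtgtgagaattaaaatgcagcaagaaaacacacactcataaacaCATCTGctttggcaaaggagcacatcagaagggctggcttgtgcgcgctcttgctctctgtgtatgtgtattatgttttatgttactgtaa
ZAP70: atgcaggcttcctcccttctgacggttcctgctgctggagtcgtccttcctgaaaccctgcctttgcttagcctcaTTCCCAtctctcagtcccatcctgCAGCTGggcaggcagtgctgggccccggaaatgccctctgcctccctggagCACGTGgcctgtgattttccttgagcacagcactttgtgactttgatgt
The letters TGTGGT stood before CD3D and LCK, and 8.99% of the 35116 RefSeq promoter windows of this length hold them. TGGGAA stood before CD3D, CD2 and ZAP70 and is held by 17.5% of windows. An E-box stood before CD2 and ZAP70, as in 54.6% of windows. A match is a string of letters and not a shown binding site. In these stretches no motif separated the 3 genes called lower from ZAP70. ZAP70 was not called, but all 6 knockdown libraries lay below both controls for it. LAT was also not called, and its libraries overlapped. The window before its first RefSeq start held none of these motifs, and that before its next start held an E-box and TGGGAA. Neither is shown. RefSeq also has start sites of LCK and ZAP70 further downstream, whose windows are not shown. That of LCK held TGGGAA but not TGTGGT, and those of ZAP70 held no TGGGAA, so the matches depend on the window.

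SIRT1 itself, which checks the labels, averaged 1299.7 ± 36.5 normalized counts in sh1 libraries and 1165 ± 60.1 in sh3 libraries (SD, n = 3 each), against 1832 ± 123 in the controls (SD, n = 2). All 6 knockdown libraries lay below both controls. The change was -0.57 ± 0.063 on the log2(value + 1) scale (SE, limma adjusted p = 0.00030), so SIRT1 messenger RNA was reduced and not removed.

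The comparison of SIRT1 knockdown (the mean of sh1 and sh3) with control asks whether the receptor module responds to lower SIRT1. Over this mean all 4 CD3 chains, LCK, CD2 and CD7 were called lower, and ZAP70 and LAT were not called. That is 7 of 9 genes lower and 0 higher at a limma adjusted p under 0.05, while of the 13885 genes tested 6.19% were called lower, 6.55% higher and 12.7% in either direction. In 7 of the 9 genes every knockdown library lay below both controls, as did 11.4% of all genes tested. ZAP70 was among these 7 and CD3G was not. With sh1 alone CD3G did not fall (0.044, limma adjusted p = 0.65). The median log2 change of the 9 was -0.33, against -0.0022 over all genes. The falls were modest except for CD2, a gene with few counts. In bulk RNA, fewer cells that carry a transcript and less of it per cell cannot be told apart. Without control C, which leaves control A as the sole control library, 4 of the 9 were called (CD3D, CD3E, LCK and CD7), as were 339 of the 13885 genes tested.

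**Figure D1:**
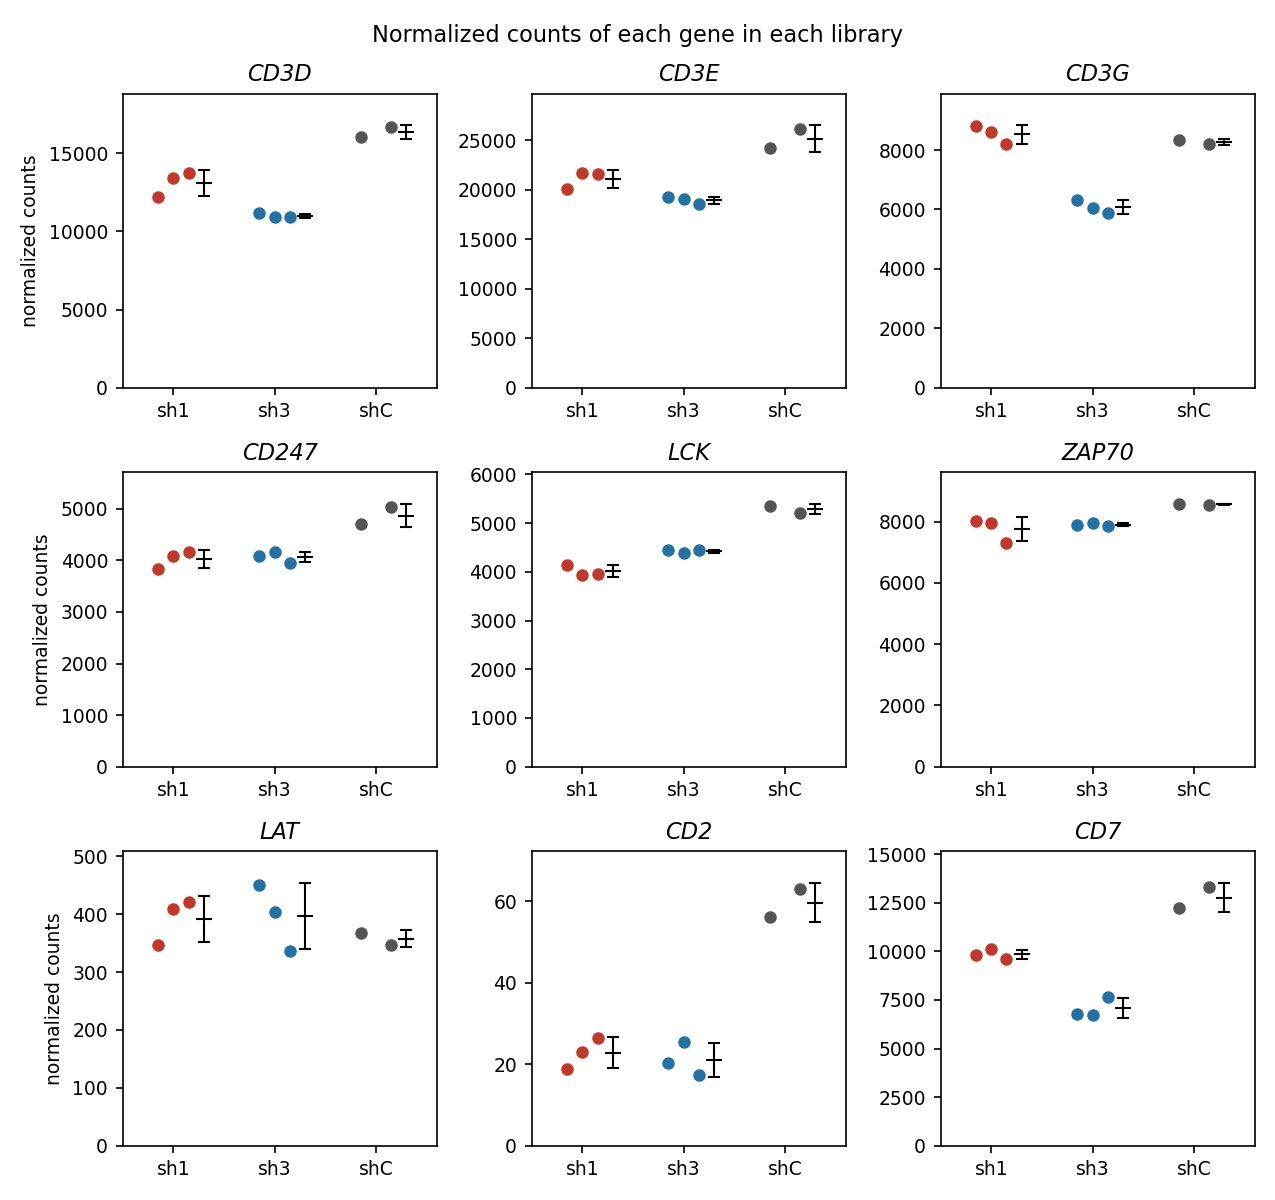
Normalized counts of the 9 genes (vertical axes, from 0) in each library with sh1, sh3 and the control hairpin shC. Points are libraries, and bars are the mean ± SD of the group (n = 3, 3 and 2). With sh1 and sh3 the points of CD3D, CD3E, CD247, LCK, ZAP70, CD2 and CD7 all lie below both control points, while those of CD3G with sh1 and of LAT do not.

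CD3E encodes the epsilon chain, which pairs with either the delta or the gamma chain inside the receptor. It stood at 20041, 21688.5 and 21589 normalized counts in sh1 A, B and C, and at 19253, 19069 and 18528 in sh3 A, B and C, against 24188 and 26148 in control A and C. The 3 groups did not overlap, with sh3 lowest and control highest. The log2 change was -0.25 ± 0.051 with sh1 (SE, limma adjusted p = 0.017) and -0.41 ± 0.051 with sh3 (adjusted p = 0.00039). The call with sh1 was lost when sh1 and control were fitted without sh3 (adjusted p = 0.053). It was also lost without the variance trend (adjusted p = 0.096).

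CD3D encodes the delta chain. Its values were 12186, 13402 and 13755.5 normalized counts with sh1 and 11155, 10907 and 10917 with sh3, against 16043 and 16676 in the controls. Here too the 3 groups were separate and in the same order as for CD3E. The log2 change was -0.32 ± 0.054 with sh1 (SE, adjusted p = 0.0072) and -0.57 ± 0.054 with sh3 (adjusted p = 5.6e-05), a level of 0.80 of control with sh1 and 0.67 of control with sh3.

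CD3G encodes the gamma chain and followed another pattern. It stood at 8794, 8612 and 8187 normalized counts with sh1 and at 6320.1, 6042 and 5884 with sh3, against 8331 and 8209 in the controls. The sh1 libraries surrounded the controls, whereas every sh3 library was below them. With sh1 the log2 change was 0.044 ± 0.050 (SE, adjusted p = 0.65, 95% interval -0.065 to 0.15), and with sh3 it was -0.44 ± 0.050 (adjusted p = 0.00019). Over the mean of the constructs the change was -0.20 ± 0.044 (adjusted p = 0.015). That call was lost when control A was left out (-0.19, adjusted p = 0.092) and when control C was (-0.21, adjusted p = 0.11), and without the variance trend (adjusted p = 0.069).

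CD247 encodes the zeta chain, which sits in the receptor as a homodimer and is encoded apart from the other chains, on chromosome 1. Its normalized counts were 3842, 4076 and 4171 with sh1 and 4076, 4157 and 3957 with sh3, against 4711 and 5027 in the controls. The sh1 and sh3 libraries overlapped each other and all lay below the controls. The falls were -0.27 ± 0.055 with sh1 (SE, adjusted p = 0.017) and -0.26 ± 0.055 with sh3 (adjusted p = 0.0076). Without control C the change was -0.22 for the mean of the constructs, with an adjusted p of 0.11.

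**Figure D2:**
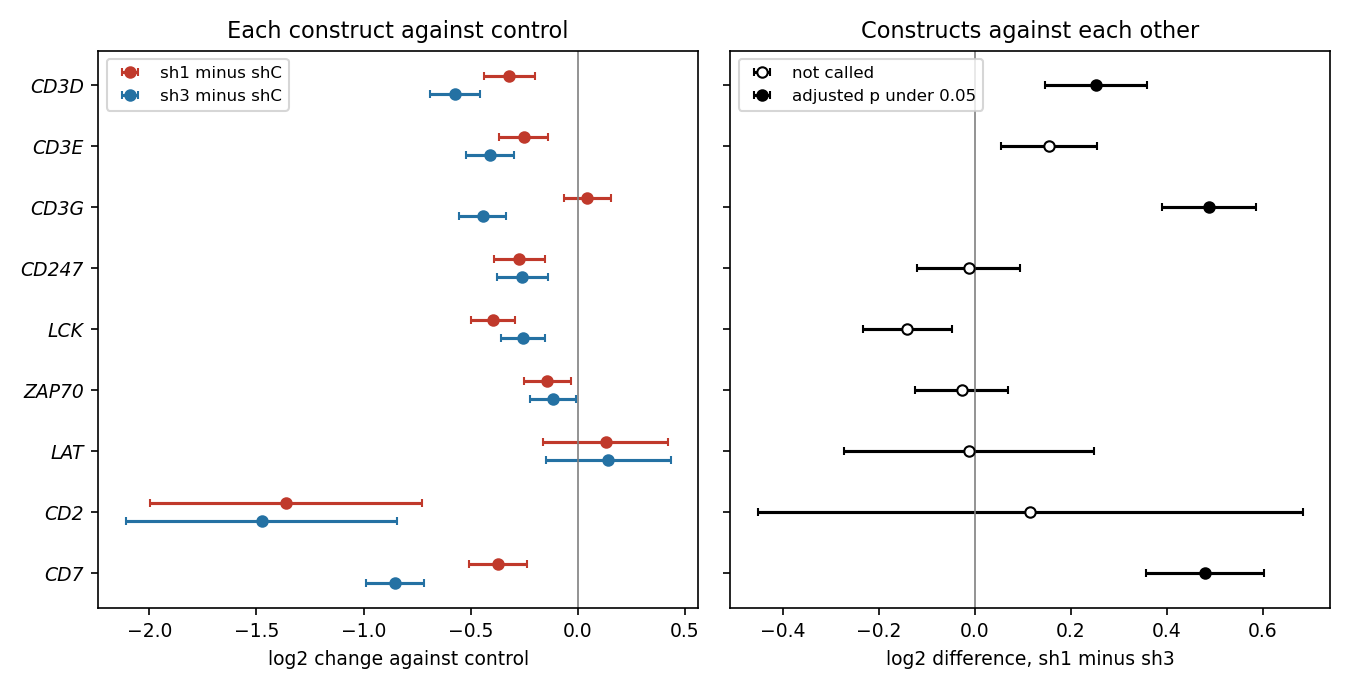
Left, log2 change of each gene against control with sh1 and with sh3. Right, log2 difference between sh1 and sh3, filled where the adjusted p is under 0.05 (bars, 95% intervals of the fitted change; sh1 n = 3, sh3 n = 3, shC n = 2). CD3D, CD3G and CD7 differ between the constructs, while the intervals of CD247, ZAP70, LAT and CD2 include 0.

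CD3E, CD3D and CD3G lie together on chromosome 11 in a span of 50617 bases. On GRCh38 with GENCODE 29, CD3E occupies chr11:118304545-118316175 on the plus strand, CD3D chr11:118338954-118342744 on the minus strand and CD3G chr11:118344344-118355161 on the plus strand. CD3D and CD3G are thus transcribed away from each other from annotated starts 1600 bases apart, and 22778 bases separate CD3E from CD3D. With sh1 the 95% interval of the log2 change was -0.44 to -0.20 for CD3D and -0.065 to 0.15 for its divergent neighbour CD3G. With sh3 the intervals were -0.69 to -0.46 for CD3D and -0.55 to -0.33 for CD3G. The difference between the genes within a construct was not tested. The coding genes next to the cluster, MPZL2 beyond CD3E (0.21, adjusted p = 0.53) and UBE4A beyond CD3G (0.12, adjusted p = 0.10), were not called over the mean of the constructs.

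**Figure D3:**
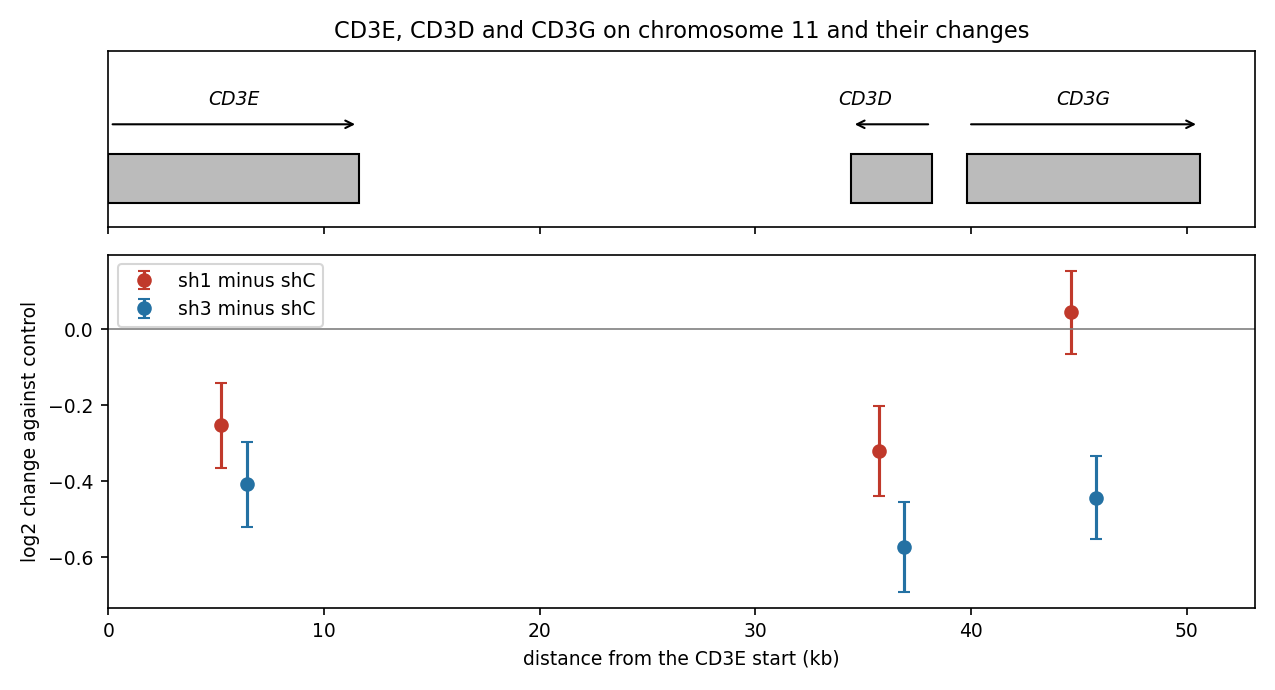
Top, the annotated extent of CD3E, CD3D and CD3G on chromosome 11 (boxes; arrows, direction of transcription) by distance from the CD3E start in kb. Bottom, log2 change of each gene against control with sh1 and sh3, with 95% intervals. CD3G with sh1 is at 0.044, and the other 5 changes lie between -0.57 and -0.25.

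Ratios between the chains were set side by side per library, since these do not depend on how a library is scaled. The ratio of CD3G to CD3D normalized counts was 0.72, 0.64 and 0.60 in sh1 A, B and C and 0.57, 0.55 and 0.54 in sh3 A, B and C, against 0.52 and 0.49 in control A and C. All 6 knockdown libraries were above both controls, and the sh1 libraries were above those of sh3. The ratio of CD3E to CD3D was 1.61 ± 0.038 with sh1 and 1.72 ± 0.026 with sh3 (n = 3 each, mean ± SD), against 1.54 ± 0.043 in the controls (SD, n = 2). CD247 over CD3E was 0.191 ± 0.0027 with sh1 and 0.214 ± 0.0032 with sh3, against 0.193 ± 0.0018 in the controls, so that for this ratio sh3 stood apart and sh1 and control overlapped. These ratios are descriptions and were not tested.

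**Figure D4:**
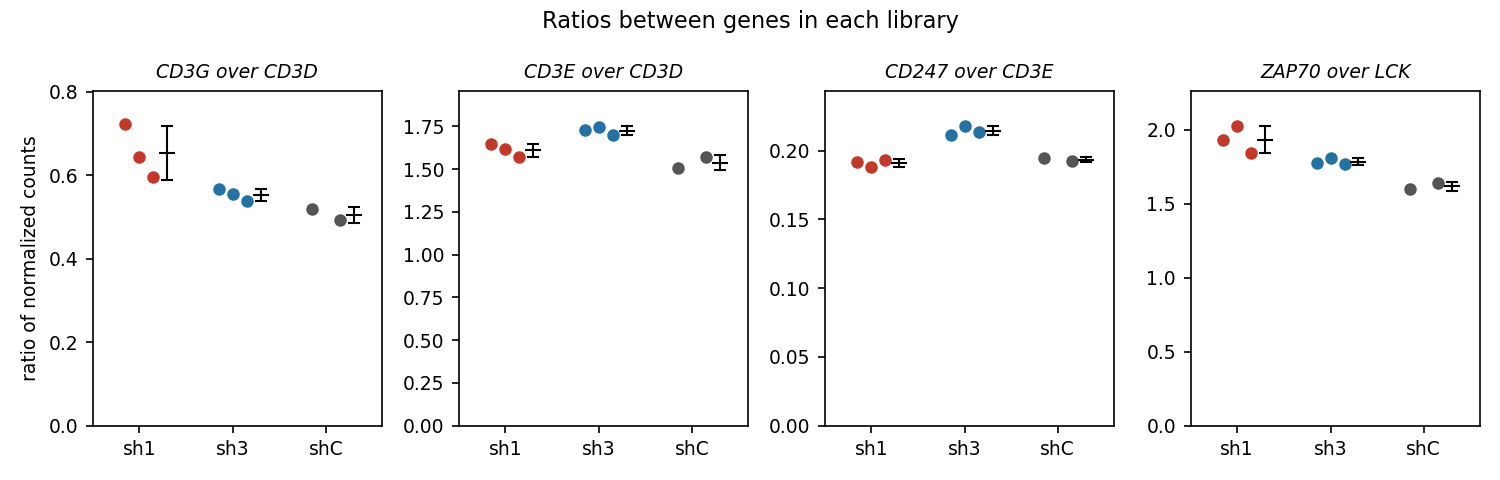
Ratio of the normalized counts of 2 genes in each library (vertical axes, from 0) for sh1, sh3 and shC, with mean ± SD (n = 3, 3 and 2). CD3G over CD3D and ZAP70 over LCK are highest with sh1 and lowest in the controls, and CD247 over CD3E is highest with sh3.

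LCK, the Src-family kinase that starts the cascade, stood at 4149.6, 3933 and 3962 normalized counts with sh1 and at 4443, 4392 and 4438 with sh3, against 5361 and 5211 in the controls. The groups did not overlap, and here sh1 was lowest. The log2 change was -0.40 ± 0.047 with sh1 (SE, adjusted p = 0.00087) and -0.26 ± 0.047 with sh3 (adjusted p = 0.0039). It was the gene of this set whose call with sh1 held without control C. Both annotated LCK promoters feed the same gene-level value, so their use cannot be told apart.

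ZAP70, the kinase that binds the phosphorylated CD3 tails, had 8015, 7965 and 7307 normalized counts with sh1 and 7879, 7953 and 7869 with sh3, against 8570.3 and 8549.8 in the controls. All 6 knockdown libraries were below both controls, by a small margin. The log2 change of -0.13 ± 0.044 (SE, 95% interval -0.23 to -0.032) did not pass, with an adjusted p of 0.079. It passed under upper-quartile scaling (-0.15, adjusted p = 0.038) and without sh1 A (-0.14, adjusted p = 0.049). The ratio of ZAP70 to LCK was 1.93 ± 0.090 with sh1 and 1.79 ± 0.022 with sh3, against 1.62 ± 0.030 in the controls (SD, n = 3, 3 and 2).

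LAT, the scaffold that ZAP70 phosphorylates, was at 347, 409 and 421 normalized counts with sh1 and 450.0, 404 and 337 with sh3, against 368 and 347 in the controls. The groups overlapped. The log2 change was 0.14 ± 0.12 (SE, adjusted p = 0.50), with a 95% interval of -0.13 to 0.40. LAT shares its locus in GENCODE 29 with a processed transcript on the same strand and an antisense RNA, and its value is uncertain to that extent. The same limit holds for CD247, which overlaps a sense intronic and a long intergenic noncoding RNA on its own strand. LCK overlaps an RNA annotated on the other strand.

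CD2 had the largest change of the set from the lowest level. Its normalized counts were 18.9, 23.0 and 26.4 with sh1 and 20.3, 25.4 and 17.3 with sh3, against 56.2 and 63.1 in the controls. Every knockdown library was below both controls, and the constructs overlapped. The log2 change was -1.36 ± 0.29 with sh1 (SE, adjusted p = 0.021) and -1.48 ± 0.29 with sh3 (adjusted p = 0.0054), and over the mean of the constructs the knockdown level was 0.374 of the control level. That change ranked 72 from the bottom of the 13885 genes. The call over the mean of the constructs was lost without control C (-1.34, adjusted p = 0.091). That with sh1 was also lost without control A (-1.44, adjusted p = 0.086) or sh1 B (-1.37, adjusted p = 0.057).

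CD7 was abundant and fell clearly. It stood at 9809, 10109 and 9627 normalized counts with sh1 and at 6803, 6748 and 7671 with sh3, against 12233 and 13298 in the controls. The groups did not overlap, with sh3 lowest. The log2 change was -0.37 ± 0.062 with sh1 (SE, adjusted p = 0.0069) and -0.85 ± 0.062 with sh3 (adjusted p = 9.6e-06), a level of 0.77 of control with sh1 and 0.55 of control with sh3. SECTM1, which encodes a ligand of CD7, is the next tested gene on chromosome 17 and was scarce. It was at 38.1 ± 7.83 normalized counts with sh1 and 26.7 ± 8.28 with sh3 (n = 3 each, mean ± SD), against 51.1 ± 1.25 in the controls (SD, n = 2), and its change of -0.70 ± 0.28 was not called (SE, adjusted p = 0.12).

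With sh1 6 of the 9 genes were called lower (CD3D, CD3E, CD247, LCK, CD2 and CD7), against 3.43% of all genes tested called lower, 2.88% called higher and 6.31% called either way. Without control C the single call left with sh1 was LCK. CD3D was then at -0.29 (adjusted p = 0.079), CD3E at -0.20 (adjusted p = 0.16), CD247 at -0.23 (adjusted p = 0.15), CD2 at -1.28 (adjusted p = 0.16) and CD7 at -0.31 (adjusted p = 0.087). With sh3 7 of 9 were called lower, the same 6 and CD3G, against 9.19% of all genes called lower, 9.36% called higher and 18.6% called either way. In 8 of the 9 every sh3 library was below both controls, as were 25.1% of all genes. Without control C the calls of CD247 (-0.21, adjusted p = 0.093) and CD2 (-1.39, adjusted p = 0.064) with sh3 were lost. Both comparisons use the same 2 control libraries and are not independent of each other.

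The direct comparison of sh1 with sh3 does not use the control level and tests whether the constructs differ. On the log2 scale CD3G was 0.49 ± 0.044 higher with sh1 than with sh3 (SE, adjusted p = 4.8e-05), CD7 by 0.48 ± 0.056 (adjusted p = 0.00024) and CD3D by 0.25 ± 0.048 (adjusted p = 0.0062). These 3 of 9 genes compare with 5.61% of all genes called higher with sh1, 5.83% called lower and 11.4% called in either direction. CD3E, at 0.15 ± 0.046 (adjusted p = 0.051), and LCK, at -0.14 ± 0.042 (adjusted p = 0.053), were next to the threshold. Both passed it without sh1 A (CD3E at 0.19, adjusted p = 0.016, and LCK at -0.16, adjusted p = 0.031), and CD3E also passed it without either control. For CD247 the difference was -0.013 with a 95% interval of -0.12 to 0.094, and for ZAP70 -0.027 with an interval of -0.12 to 0.070. For LAT (-0.27 to 0.25) and CD2 (-0.45 to 0.68) the intervals were wide. SIRT1 itself was 0.16 ± 0.063 higher with sh1 than with sh3 (SE, 95% interval 0.021 to 0.30) and was not called (adjusted p = 0.14). Every sh1 library was above every sh3 library for SIRT1.

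Levels of different genes were compared per kb of the principal GENCODE 29 transcript, an approximation because the transcript lengths behind the authors' quantification are not stated. In normalized counts per kb, CD3D was at 15232 ± 956 with sh1 and 12768 ± 163 with sh3, against 19000.2 ± 520 in the controls, and CD3E at 13635 ± 597 and 12242 ± 243, against 16259 ± 895. CD7 followed at 7688 ± 190.2 with sh1 and 5522 ± 404 with sh3, against 9965 ± 588 in the controls (SD, n = 3, 3 and 2). ZAP70 (3513 ± 5.93 in the controls), CD3G (3074 ± 32.0), CD247 (3026 ± 139) and LCK (2497) formed a middle tier, in which CD3G and CD247 did not differ beyond their spread. LAT was far lower at 269 ± 27.2 with sh1 and 272 ± 39.1 with sh3, against 245 ± 10.1 in the controls. CD2 was nearly silent at 14.2 ± 2.36 with sh1 and 13.1 ± 2.55 with sh3, against 37.1 ± 3.01 in the controls. On the same per kb scale CD3G and ZAP70 were within their spread of each other with sh1 (3171 ± 116 and 3185 ± 162), while with sh3 CD3G was below ZAP70 (2261 ± 82.1 and 3242 ± 18.9).

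The rest of the pathway was followed through 6 lists that hold none of the 10 genes. Over all genes tested, 6.19% were called lower and 6.55% higher over the mean of the constructs. Of the T cell receptor chains 4 of 7 were tested, and 1 was lower and 0 higher. TRBC1, the constant region of the beta chain, had 13145 ± 783 normalized counts with sh1 and 12158 ± 43.4 with sh3 (n = 3 each, mean ± SD), against 12078 ± 157 in the controls (SD, n = 2), and its change of 0.065 ± 0.046 was not called (adjusted p = 0.39). TRDC, the constant region of the delta chain, fell to 1149 ± 131 with sh1 and 416 ± 37.5 with sh3, against 1784 ± 68.1 in the controls (-1.37 ± 0.093, adjusted p = 1.7e-05). It also differed between sh1 and sh3, by 1.46 ± 0.093 (adjusted p = 4.1e-06). TRBC2 was below the limit for testing, and TRAC was not analysed here.

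Of 15 coreceptors and costimulatory receptors 9 were tested, and 3 were lower and 0 higher, with a median of -0.21 on the log2 scale. CD28, the main costimulatory receptor, had 342 ± 22.2 normalized counts with sh1 and 178 ± 9.26 with sh3, against 426 ± 35.5 in the controls (-0.78 ± 0.10 over the mean of the constructs, adjusted p = 0.00085). With sh1 alone it was not called (-0.32, adjusted p = 0.13). ICOS, a relative of CD28, changed by -0.22 ± 0.047 (adjusted p = 0.012) and was not called with sh1 either (-0.051, adjusted p = 0.62). The ICOS call was lost without control A (-0.24, adjusted p = 0.053) and, likewise, without control C (-0.20, adjusted p = 0.13). CD226, an adhesion receptor, changed by -1.43 ± 0.39 (adjusted p = 0.036) at a mean of 44.4 normalized counts or less per group, and was not called with sh1 (-1.35, adjusted p = 0.097). Its call over the mean of the constructs did not survive leaving out either control (-0.98 without A, adjusted p = 0.28, and -1.88 without C, adjusted p = 0.087), sh1 B, sh3 A or sh3 B, and was lost with the letter as a block (-1.36, adjusted p = 0.093). CD6, the paralog of CD5, lay between 13.1 and 27.8 normalized counts in the 8 libraries, with a log2 difference of 0.060 ± 0.33 (adjusted p = 0.93).

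Among 12 ligands and partners of the pan-T proteins 2 were lower and 2 higher, with a median of 0.0017. CD58, which CD2 binds, was at 461 ± 38.2 normalized counts with sh1 and 531 ± 22.8 with sh3, against 488 ± 13.3 in the controls (0.017 ± 0.085, adjusted p = 0.92). PTPRC (CD45), the phosphatase that keeps LCK activatable, averaged 3440.5 ± 158 normalized counts with sh1 and 4304 ± 401 with sh3, against 2979.8 ± 185 in the controls (0.37 ± 0.070 over the mean of the constructs, adjusted p = 0.0069). It was called higher with sh3 (0.53, adjusted p = 0.0011) and was not called with sh1 (0.21, adjusted p = 0.14), and the constructs differed (-0.32, adjusted p = 0.013). CD38, an enzyme that consumes NAD at the surface of lymphocytes, averaged 14073 ± 561 normalized counts with sh1 and 17162 ± 902 with sh3, against 18402 ± 1156 in the controls (-0.24 ± 0.052 over the mean of the constructs, adjusted p = 0.013). It was called lower with sh1 (-0.39, adjusted p = 0.0040) and was not called with sh3 (-0.10, adjusted p = 0.27), and the constructs differed (-0.29, adjusted p = 0.0047). CD52, a small surface glycoprotein, rose by 1.03 ± 0.25 over the mean of the constructs (adjusted p = 0.021) and was called with each of them. Leaving out control C ended the calls of PTPRC (0.30) and CD38 (-0.18). Without the variance trend both were also lost (adjusted p = 0.057 for PTPRC and 0.076 for CD38). The CD38 call was lost under quantile normalization as well (-0.16, adjusted p = 0.060). The CD52 call was lost without either control (1.10 without A, adjusted p = 0.076, and 0.96 without C, adjusted p = 0.16) and with the letter as a block (0.99, adjusted p = 0.060).

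Of 24 tested kinases and adaptors around the receptor 4 were lower and 3 higher, with a median of -0.030. FYN, the Src-family paralog of LCK, fell to 5124 ± 333 normalized counts with sh1 and 6102 ± 422 with sh3, against 7139 ± 202 in the controls (-0.35 ± 0.061, adjusted p = 0.0043). SLA2, an adaptor that dampens receptor signalling, fell to 64.9 ± 3.21 with sh1 and 72.1 ± 24.1 with sh3, against 196.9 ± 35.1 (-1.53 ± 0.22, adjusted p = 0.0017). SH2D1A, the adaptor SAP, changed by -0.37 ± 0.058 (adjusted p = 0.0026). Leaving out control C ended the calls of FYN (-0.33, adjusted p = 0.078) and SH2D1A (-0.34, adjusted p = 0.055). SYK, the paralog of ZAP70, was at 7.36, 5.28 and 1.62 normalized counts with sh1 and 48.4, 11.8 and 16.3 with sh3, against 8.87 and 3.51 in the controls (0.68 ± 0.62, adjusted p = 0.52). FCER1G, which resembles CD247 in function, was likewise scarce and was not called (0.51 ± 0.39, adjusted p = 0.43). LAT2, the paralog of LAT, was at 188 ± 35.7 with sh1 and 354 ± 15.1 with sh3, against 182 ± 16.3 (0.49 ± 0.14, adjusted p = 0.042), and with sh1 alone the change was 0.026 (adjusted p = 0.95, 95% interval -0.32 to 0.37). Its call over the mean of the constructs was lost on leaving out any library but sh1 A (0.40 to 0.58) and with the letter as a block (0.46, adjusted p = 0.061). The other called genes of this list, named after their values were seen, were THEMIS (0.46, adjusted p = 0.0093), RHOH (0.21, adjusted p = 0.032) and GRAP (-0.46, adjusted p = 0.018). THEMIS was called higher with sh1 (0.99, adjusted p = 0.00044) and was not called with sh3 (-0.064, adjusted p = 0.72). RHOH was called with neither construct alone.

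Of 18 negative regulators 3 were lower and 3 higher, with a median of 0.085. The 3 higher, named after their values were seen, were CBL (0.32, adjusted p = 0.016), PTPN22 (0.35, adjusted p = 0.031) and SIT1 (0.22, adjusted p = 0.026). CBL was called with each construct. PTPN22 and SIT1 were called with sh3 and not with sh1 (adjusted p = 0.17 and 0.97). PAG1, the membrane adaptor that recruits CSK, fell to 1002 ± 40.6 normalized counts with sh1 and 752 ± 46.0 with sh3, against 1449.9 ± 270.5 in the controls (-0.73 ± 0.093, adjusted p = 0.00085). UBASH3A, which restrains T cell receptor signalling, fell to 779 ± 15.6 and 878 ± 39.4, against 1165 ± 85.8 (-0.49 ± 0.067, adjusted p = 0.0013). CSK, the kinase that phosphorylates the inhibitory tyrosine of LCK, changed by -0.24 ± 0.054 over the mean of the constructs (adjusted p = 0.014) and was not called with sh1 (-0.19, adjusted p = 0.090). The call over the mean was lost without control C (-0.20, adjusted p = 0.17). Of 22 tested genes of the downstream branches, from calcium release to NFAT and RAS, limma called 0 over the mean of the constructs, against 12.7% of all genes. An unadjusted p under 0.05 was found for 6, and the median was 0.063. With sh1 it called 0 of 22, against 6.31% of all genes, with 3 at an unadjusted p under 0.05. The share of all genes under that unadjusted limit was not taken in either comparison. With sh3 3 of 22 were called higher, against 9.36% of all genes tested, and they are named here after their values were seen. They are STIM1, the calcium sensor of the endoplasmic reticulum (0.36, adjusted p = 0.0023), RASGRP1, an activator of RAS (0.46, adjusted p = 0.0053), and NFATC3, an NFAT transcription factor (0.25, adjusted p = 0.0066). STIM1 averaged 4039 ± 214 normalized counts with sh1 and 5545 ± 224 with sh3, against 4330.1 ± 203 in the controls. These 3 were also called lower with sh1 than with sh3, by the direct comparison (-0.46 for STIM1, -0.55 for RASGRP1 and -0.33 for NFATC3, with adjusted p-values of 0.00025, 0.0011 and 0.00074).

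**Figure D5:**
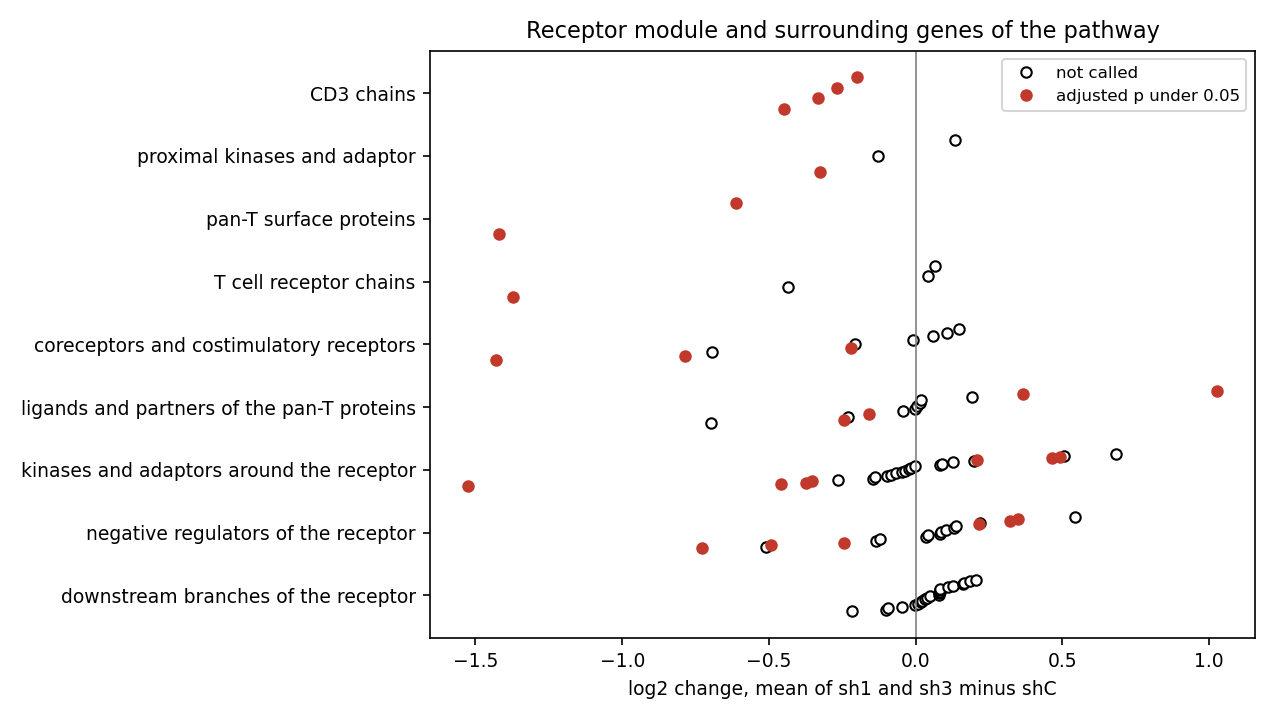
Log2 change of SIRT1 knockdown (mean of sh1 and sh3) minus control for each tested gene of the 9 genes described (top 3 rows) and of 6 lists of surrounding genes. Filled points passed an adjusted p of 0.05. The 4 CD3 chains lie to the left of 0, while called kinases, adaptors and negative regulators lie on both sides. No downstream gene was called over this mean, whereas 3 of 22 were called higher with sh3, against 9.36% of all genes tested.

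The nearest tested genes on either side of the 9, leaving out genes of the set, numbered 14. Limma called 0 of these 14 over the mean of the constructs, against 12.7% of all genes tested, so 0 of 14 is not far from that share. Of the 14, 7 had an unadjusted p under 0.05, and the share of all genes under that limit was not taken. Their median log2 change was -0.075, against -0.0022 over all genes.

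Genes whose pattern over the 8 libraries was most like that of CD3E, LCK, CD2 and CD7 were listed by Pearson correlation on the log2 scale among genes with a mean of at least 50 normalized counts. The libraries share their 3 groups and the points are not independent, so the coefficients are descriptions. CD3D was the gene most like CD3E (0.99), ahead of SLC39A4 and DPP7 (both 0.98). CD247 was most like CD2 (0.98), followed by CYHR1 and RRP36 (both 0.97). TMC8 was most like LCK (0.98), followed by GPRIN3 and RIMS3 (both 0.98). TRDV1, a variable segment of the delta chain locus, was most like CD7 (0.99), with means of 339 normalized counts with sh1 and 123 with sh3, against 651 in the controls, and AMH was also among the 3 most like it (0.99). CD3G did not track CD3D as closely as CD3E did, at 0.74 over the same libraries.

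By mean level CD3E stood at the 99.1 percentile of all rows, CD3D at 98.0, CD7 at 96.9, ZAP70 at 95.9 and CD3G at 95.6. LCK stood at 90.8 and CD247 at 90, whereas LAT stood at 50.3 and CD2 at 33.8. Markers of other cells were measured beside them. Of 10 B cell markers 7 were found, and their summed level was 20385 to 22190 normalized counts with sh1 and 27053 to 28556 with sh3, against 27202 to 28882 in the controls. Most of this was CD79A, the B cell receptor signalling chain (18393 ± 841 with sh1 and 23843 ± 800 with sh3, against 24849 ± 1215, adjusted p = 0.0073 over the mean of the constructs), which was called with sh1 (-0.43, adjusted p = 0.00099) and not with sh3 (-0.059, adjusted p = 0.48). Of the 5 B cell markers tested, EBF1 and BLK were also called over the mean of the constructs. CD79B was not called over that mean (0.21, adjusted p = 0.11) or with sh1 (-0.14, adjusted p = 0.41), but was called higher with sh3 (0.56, adjusted p = 0.0019). EBF1, a B lineage factor, averaged 989.6 ± 45.6 with sh1 and 1461 ± 78.1 with sh3, against 899.5 ± 3.17 (0.42, adjusted p = 0.0023). The sh3 change passed (0.70, adjusted p = 1e-04), while the sh1 change did not (0.14, adjusted p = 0.29). BLK, a Src-family kinase, averaged 1477 ± 67.1 with sh1 and 1619 ± 46.3 with sh3, against 1809 ± 50.4 (-0.23, adjusted p = 0.023), and was called with sh1 (-0.29, adjusted p = 0.021) and not with sh3 (-0.16, adjusted p = 0.10). All 6 myeloid markers found had a mean under 10 and were not tested, and their sums were 8.29 to 65.3 with sh1 and 18.5 to 27.3 with sh3, against 27.4 to 36.2 in the controls. ITGAM led these at 18.0 ± 16.9 with sh1 and 4.39 ± 5.52 with sh3, against 1.54 ± 0.97. The 5 NK markers found summed to 1493 to 1602 with sh1 and 1542 to 1640.2 with sh3, against 1667 to 1700.4, and PRF1, the cytotoxic protein perforin, was called over the mean of the constructs (-0.28, adjusted p = 0.020) but not with sh1 (-0.18, adjusted p = 0.19). The 9 adherent cell markers found summed to 25038 to 26505 with sh1 and 25248 to 26680 with sh3, against 26451 to 26848. Nearly all of this was VIM, a filament gene that lymphocytes also express (-0.040, adjusted p = 0.57), and PECAM1 was called over the mean of the constructs (-0.42, adjusted p = 0.023) but not with sh3 (-0.34, adjusted p = 0.065). The calls over that mean of BLK, PRF1 and PECAM1 were lost without either control, and that of CD79A without control C (-0.20, adjusted p = 0.12). With the letter as a block PRF1 (-0.28, adjusted p = 0.055) and PECAM1 (-0.43, adjusted p = 0.058) were not called. What part these markers play in the changes of the 9 genes was not tested.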

How the data were processed

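Strand-specific RNA sequencing libraries were made from DND41 cells, per the labels' protocols. The values that the authors deposited are a signal, normalized counts for each gene symbol. Per the submitters' processing notes, the tools were kallisto 0.44.0 and DESeq and the build hg38. No annotation or filter is named there. Values were not whole, and 27.1% to 42.6% of values up to 20 lay within 0.02 of a multiple of the best step, so reads were not recovered, the read depth is unknown and no count test was used.

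Here log2(value + 1) was analysed with limma 3.58.1 in R 4.3.3 for the 13885 of 18133 rows with a mean of at least 10. A single model held the 3 group means (5 residual degrees of freedom, empirical Bayes with a trend). Tests were two-sided with Benjamini-Hochberg adjustment over all genes tested, called under 0.05. The procedure was tested on simulated data. Fold changes on this scale understate the change of low genes. Alternatives were other pseudocounts (0.5 and 5), filters, scalings, no variance trend, the letter as a block, each pair of groups alone and each library left out.

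The genes and lists were chosen with earlier results of these data known. Named from each list were the 3 called genes with the smallest p, paralogs or partners of the genes described, and the most abundant marker of each other cell type. Some further genes of the lists were named after their values were seen. The 3 genes most like CD3E, LCK, CD2 and CD7 were also named, except 1 that is not reported here. Gene positions come from GENCODE 29 (GRCh38, another name for hg38), and promoter sequences from RefSeq, GRCh38.p14.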

Additional observations from a re-analysis of the deposited data

Results flagged for a closer look

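The effects of sh1 and sh3 differed in 3 of the 9 genes by a direct test of the difference, which equals the difference between their effects against control. CD3G differed by 0.49 ± 0.044 on the log2 scale (sh1 minus sh3, SE, limma adjusted p = 4.8e-05), CD7 by 0.48 ± 0.056 (adjusted p = 0.00024) and CD3D by 0.25 ± 0.048 (adjusted p = 0.0062). All 3 sh1 libraries were above all 3 sh3 libraries in 4 of the 9 genes, these 3 and CD3E. For LCK they were all below, and neither CD3E nor LCK was called. The share of all genes without overlap between sh1 and sh3 is not given here. With 1 library left out at a time the difference remained between 0.46 and 0.52 for CD3G, 0.45 and 0.54 for CD7, and 0.22 and 0.30 for CD3D, and was called each time. Without the variance trend the call of CD3D was lost (0.25, adjusted p = 0.051).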

How the results depend on the processing

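The control arm holds 2 libraries, and the read depth is unknown. With 1 library left out at a time, the genes called over the mean of the constructs numbered 339 to 1898 of 13885 against 1768 with all libraries, the genes of the set 4 to 8 against 7, those with sh1 1 to 6 against 6, and those that differed between constructs 3 to 5 against 3. The lowest of the counts against control came without control C. Without the variance trend 744 genes and, with sh1, 2 of the set (LCK and CD2) were called. With a mean of at least 50 as the limit, 5 of the set differed between constructs, CD3E and LCK in addition. With the letter as a replicate block 1292 genes were called, and the genes of the set called in all 4 comparisons were the same. Libraries with the same letter did not deviate together (correlations of deviations between -0.062 and 0.058), so the letters give no pairing. Signs changed only among results that were not called. VIM was at 0.0079 under quantile normalization, and CD58 at -0.0068 under upper-quartile scaling and -0.029 with the block. With 1 library left out, CD58 ranged from -0.011 to 0.049 and CD6 from -0.45 to 0.57. The difference between sh1 and sh3 then ranged from -0.038 to 0.021 for CD247, -0.050 to 0.016 for ZAP70, -0.12 to 0.084 for LAT and -0.010 to 0.25 for CD2. The causes were not tested.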
